A study of Mus musculus with 6 samples.

Results

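The 40 genes described here encode the engine that drives the cell division cycle: cyclins, cyclin-dependent kinases (CDKs), CDK inhibitors, the retinoblastoma (RB) proteins and E2F transcription factors with their DP partners, the CDC25 phosphatases with the kinase WEE1, and the ubiquitin ligase subunits SKP2 and FBXW7. They were chosen by symbol, and all 40 were found among the 51912 Ensembl identifiers of the deposited count table. Expression was measured by RNA sequencing in R1 mouse embryonic stem cells, an established line, grown in 2iLIF medium and then moved to N2B27 medium with 100 ng/ml FGF2 (fibroblast growth factor 2) for 24 h or 48 h. Each time is represented by 3 libraries, and both groups carried the same FGF2 dose. Cells before the change of medium, or in N2B27 without FGF2, were not analysed here, so FGF2, the medium and time in culture cannot be told apart. Whether the 3 replicates of a time came from separate cultures is not stated in the labels, and p-values measure only the spread between these libraries, which may be technical.

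D-type cyclins bind CDK4 and CDK6 in G1 phase, and the kinases phosphorylate the RB proteins, which otherwise hold E2F factors in check. Released E2F activators switch on genes for DNA synthesis together with the E cyclins, whose complex with CDK2 drives entry into S phase, while cyclin A and cyclin B complexes with CDK1 and CDK2 carry the cell through S phase and mitosis. A short G1 phase and high CDK2 activity have been described in mouse embryonic stem cells, though not for every culture medium, and neither was measured here. Mitogen signalling through ERK is known in many cell types to raise cyclin D1.

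The libraries held between 19574969 and 23133148 estimated counts. The 40 genes took from 0.390% to 0.392% of all counts at 24 h and 0.417% in each library at 48 h. Counts per gene and library lay between 12 (Ccna1) and 11931 (Ccnb1). The embryonic stem cell markers Pou5f1 and Sox2 were present at 1111 and 403 CPM (counts relative to the scaled library total, in parts per 1000000, mean of 3) at 24 h. The summed level of 8 such markers lay between 4891 and 4923 CPM at 24 h and between 3719 and 3791 CPM at 48 h, with 2 of them higher and 6 lower. Nanog fell to 0.251 and Zfp42 to 0.478 of their 24 h levels, while Lin28a rose 2.93-fold and Utf1 1.51-fold. The summed level of 6 primitive endoderm markers lay between 46.3 and 54.3 CPM at 24 h and between 13.8 and 14.0 CPM at 48 h, with 2 tested, both lower, and with Gata6, Sox17, Sox7 and Foxa2 under 1 CPM in every library. All 5 trophoblast markers were under 1 CPM, as were T, Mixl1 and Gsc of the 4 mesendoderm markers, while the other one, Eomes, fell from 16.1 ± 1.35 to 13.2 ± 1.05 CPM (a log2 change of -0.29 ± 0.084, adjusted p = 0.00705). The 6 fibroblast markers summed to between 4.05 and 6.02 CPM at 24 h and between 2.07 and 3.02 CPM at 48 h, with Postn at 0 in all libraries. Of the 4 neural markers 2 were higher and 2 lower, with a sum between 126 and 136 CPM at 24 h and between 143 and 155 CPM at 48 h. Sox1 rose 2.49-fold and Pax6 2.94-fold, while Nes and Tubb3 fell. The changes of Nanog, Zfp42, Lin28a, Sox1 and Pax6 exceed 2-fold, which none of the 40 genes reached. The falls of Lama1 and Gata4 also exceed 2-fold, as do those of Col1a1 and Pdgfrb, which stood at only 1.03 and 2.06 CPM at 24 h. Mitochondrial genes took between 3.08% and 3.19% of the counts at 24 h and between 2.76% and 2.94% at 48 h. The part of these shifts in the results below was not tested. In a bulk sample, fewer cells in a given phase of the cycle and less RNA of a gene per cell cannot be told apart.

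Most of the 40 genes differed between 24 h and 48 h, as did most genes tested, and the typical size of the change was also alike. Of the 40 genes, 18 were higher at 48 h, 12 were lower and 10 did not pass the test (edgeR's quasi-likelihood test, adjusted p under 0.05 over the 14889 genes tested). Among all genes tested 62.8% were called, 30.9% higher and 31.9% lower, and among those with a mean of at least 10 CPM, which 36 of the 40 genes reach, 71.8% were called. The 40 genes were therefore called about as often as other genes of their abundance. Their median log2 fold change, 48 h over 24 h, was 0.042, against -0.0063 over all genes tested. Regardless of direction, the median size of the log2 fold change was 0.276 in the 40 genes and 0.265 over all genes tested. The share called was 100% in the G1 cyclins and in CDC25 and WEE1, 83.3% in the kinases and 80% in E2F and DP. It was 75% in the S-phase and mitotic cyclins, 66.7% in the RB family, 50% in the inhibitors and 0 in the ubiquitin ligase subunits. These classes are small, with 2 to 10 genes each. Of the 30 called genes, 21 changed by less than 0.5 in log2 units. The largest fitted change was that of Ccnd2, 1.92-fold, so no gene of the set reached 2-fold. Of all tested genes 11.2% did so with an adjusted p under 0.05, and 4.63% of those with at least 10 CPM. A share of 4.63% would be very few of 40 genes, so having none at 2-fold does not set them apart. The spread between replicates was small, with a median coefficient of variation of 2.75% at 24 h and 2.85% at 48 h. In 30 of the 40 genes every value at one time was above every value at the other, as in 66.9% of all tested genes.

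**Figure D1:**
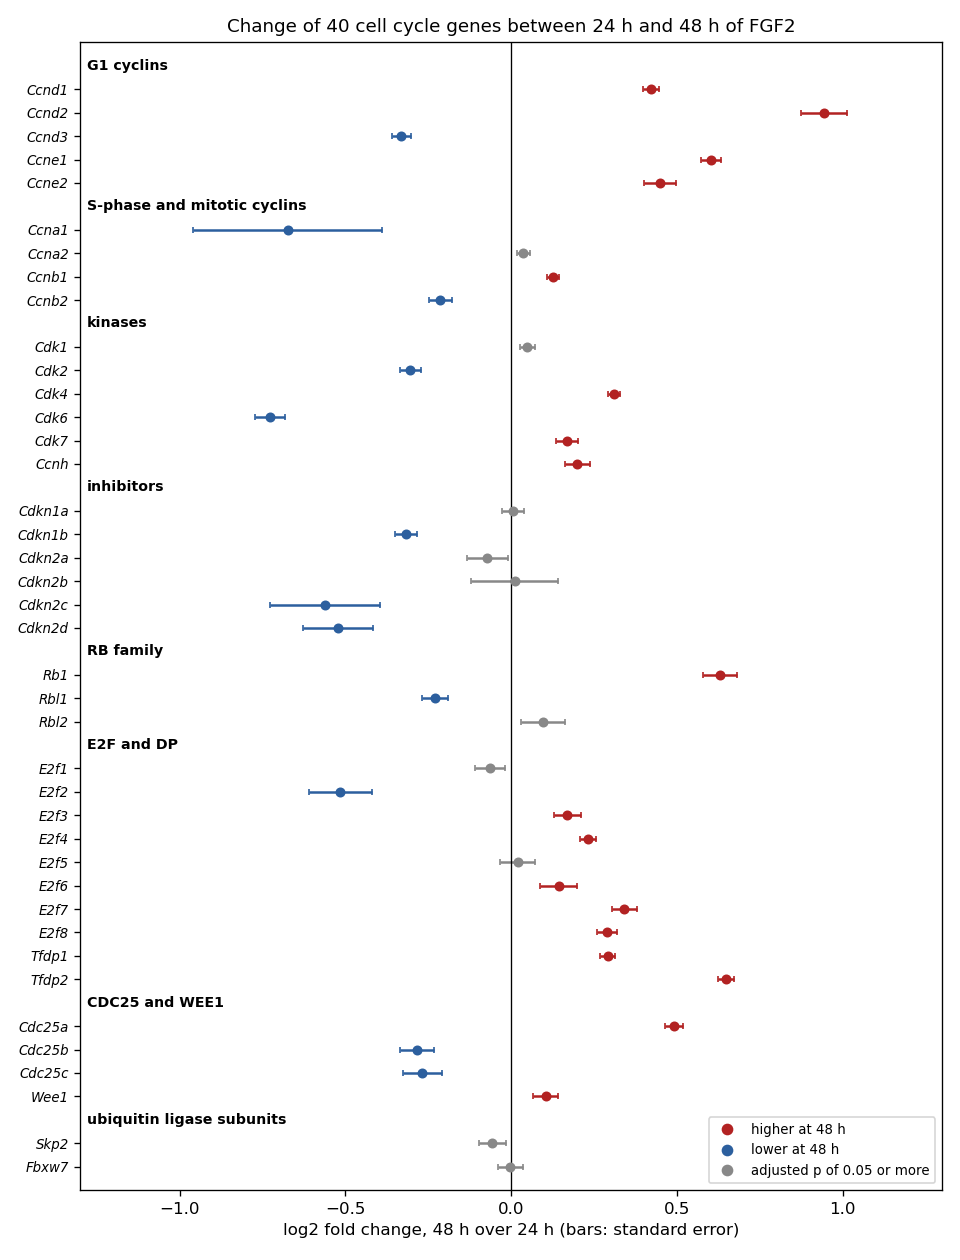
Log2 fold change, 48 h over 24 h, of each of the 40 genes, grouped by class, with bars of 1 standard error from the edgeR fit and colours for the call. The widest gap within a class is between Ccnd2 at 0.94 and Ccnd3 at -0.33 among the G1 cyclins, and the wide bars of Ccna1, Cdkn2b and Cdkn2c belong to the genes with the lowest counts.

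Of the 5 G1 cyclins, 4 rose and Ccnd3 fell, and the median log2 change was 0.45. Ccnd2 (cyclin D2; GRCm38 chr6:127125162-127152193, minus strand) stood at 11.7, 12.6 and 11.6 CPM at 24 h and 23.4, 24.0 and 21.8 CPM at 48 h. Its level nearly doubled from a low start (a log2 change of 0.94 ± 0.070, adjusted p = 4.41e-09), and no 48 h library overlapped a 24 h library. Ccne1 (cyclin E1, the partner of CDK2 at the G1/S border; chr7:38097984-38107534, minus strand) stood at 132, 138 and 137 CPM at 24 h and 204, 216 and 199 CPM at 48 h. All 3 libraries at 48 h were above all 3 at 24 h (a log2 change of 0.60 ± 0.031, adjusted p = 3.21e-11). Ccnd1 (cyclin D1; chr7:144929931-144939925, minus strand) was measured at 176, 183 and 181 CPM at 24 h and 244, 234 and 245 CPM at 48 h, again without overlap (a log2 change of 0.42 ± 0.025, adjusted p = 2.18e-10). Ccne2 (cyclin E2) rose from 24.8 ± 1.20 to 33.8 ± 0.353 CPM (mean ± SD, n = 3; a log2 change of 0.45 ± 0.049, adjusted p = 5.8e-07). Ccnd3 (cyclin D3; chr17:47505051-47599691, plus strand) went the other way, with 120.3, 117 and 119 CPM at 24 h and 95.4, 94.9 and 93.1 CPM at 48 h and no overlap (a log2 change of -0.33 ± 0.027, adjusted p = 1.98e-08). In GENCODE M21 the exons of Ccnd1, Ccnd2, Ccnd3 and Ccne2 overlap exons of genes on the opposite strand, and whether the counting used strand is not given in the sources used here, so reads of those neighbours can be part of these counts.

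The make-up of the D-cyclin total is drawn from the same counts as these fold changes, so its shift is no separate finding. Levels of different genes are compared per kilobase of merged exon length. That length joins the exons of all annotated transcripts (4709 bases for Ccnd1, 9409 for Ccnd2 and 8775 for Ccnd3) and can exceed that of the expressed ones. Shares and ranks between genes depend on it. The share of Ccnd1 in the D-cyclin total was 71.4%, 72.6% and 72.1% at 24 h and 79.5%, 78.8% and 80.1% at 48 h. Ccnd3 went from 25.5% ± 0.658 to 16.7% ± 0.427 of the total (SD, n = 3). Ccnd2, the D cyclin with the largest fold change, remained its smallest part, at 2.40% ± 0.0931 to 3.81% ± 0.239. Without division by length the mean shares at 24 h and 48 h were 3.85% and 6.43% for Ccnd2 and 38.2% and 26.4% for Ccnd3. None of the 3 shares per kilobase overlapped between the times, and each gave p = 0.1 in a two-sided exact permutation test, the lowest that 3 libraries against 3 allow (adjusted p = 0.122 over the 11 shares tested in 5 families). Of the E-cyclin total, in which both genes rose, Ccne1 held 87.8% ± 0.715 to 88.9% ± 0.502, and the libraries of the times overlapped (exact p = 0.2, adjusted p = 0.22).

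**Figure D2:**
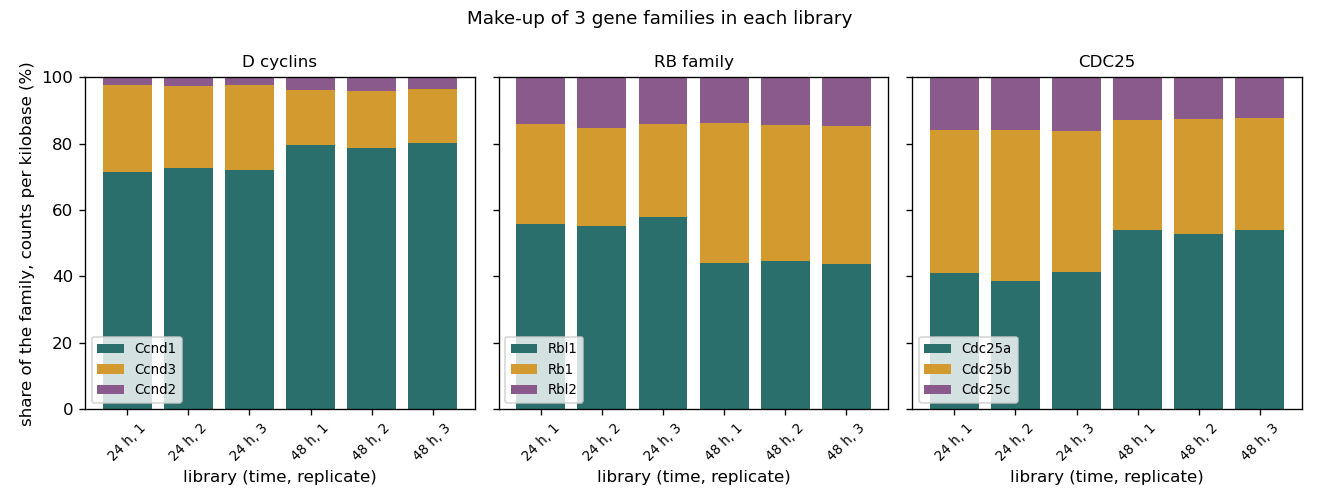
Share of each gene in its family's summed counts per kilobase, in percent, in each of the 6 libraries (time and replicate number on the horizontal axis). In all 3 families the 24 h libraries differ from the 48 h libraries: Ccnd1, Rb1 and Cdc25a take a larger share at 48 h, while Ccnd3, Rbl1 and Cdc25b take a smaller one.

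Of the 4 cyclins of S phase and mitosis, 1 rose, 2 fell and 1 did not pass the test. Ccna2 (cyclin A2), measured at 313, 306 and 309 CPM at 24 h and 312, 317 and 323 CPM at 48 h, did not pass the test, and its groups overlapped (a log2 change of 0.036 ± 0.020, adjusted p = 0.124). Ccnb1 (cyclin B1) rose slightly, from 487 ± 4.58 to 531 ± 7.15 CPM (a log2 change of 0.13 ± 0.017, adjusted p = 9.12e-06), while Ccnb2 (cyclin B2) fell, from 137 ± 3.50 to 119 ± 6.50 CPM (a log2 change of -0.21 ± 0.035, adjusted p = 5.39e-05). Ccnb1 had fractional counts, as RSEM gives where reads match more than 1 gene. Ccna1 (cyclin A1, known mainly from the male germ line) was measured at 1.55, 1.51 and 1.19 CPM at 24 h and 0.552, 1.01 and 1.08 CPM at 48 h, with only 12 to 31 counts in a library. Its call as lower (a log2 change of -0.67 ± 0.29, adjusted p = 0.0495) was lost without replicate 1 of 24 h (-0.61, adjusted p = 0.133), replicate 2 of 24 h (-0.62, adjusted p = 0.125), replicate 1 of 48 h (-0.43, adjusted p = 0.211) or replicate 2 of 48 h (-0.78, adjusted p = 0.0626). DESeq2 (-0.68, adjusted p = 0.133), RLE scaling (-0.67, adjusted p = 0.0516) and the replicate block (-0.69, adjusted p = 0.0683) also ended the call, and the adjusted p ranged from 0.0299 to 0.211 over the alternatives.

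Among the kinases, CDK4 and CDK6, which share the D cyclins as partners, changed in opposite directions. Cdk4 (chr10:127063534-127067920, plus strand) stood at 394, 399.6 and 392 CPM at 24 h and 489, 490.3 and 491 CPM at 48 h. The 48 h libraries lay close together and above every 24 h library (a log2 change of 0.31 ± 0.017, adjusted p = 9.68e-11). Cdk6 (chr5:3341485-3531008, plus strand) stood at 81.1, 78.5 and 78.9 CPM at 24 h and 50.1, 50.3 and 43.6 CPM at 48 h. It had the largest decrease of the 40 genes (a log2 change of -0.73 ± 0.046, adjusted p = 5.5e-10), with no overlap. Per kilobase, Cdk4 was at 122 ± 1.22 and 151 ± 0.377 CPM at 24 h and 48 h, the highest of the 40 genes at both times, against 5.68 ± 0.0982 and 3.43 ± 0.273 for Cdk6. Exons of Cdk2, Cdk4, Cdk6 and Ccnh also overlap exons on the opposite strand, so the limit given for the G1 cyclins holds here. Cdk2, the kinase bound by cyclins E and A, fell from 115 ± 2.29 to 92.9 ± 3.68 CPM (a log2 change of -0.30 ± 0.032, adjusted p = 4e-07), while its G1 partners Ccne1 and Ccne2 were among the genes that rose. Cdk1, the mitotic kinase, measured 199, 198 and 194 CPM at 24 h and 207, 201 and 203 CPM at 48 h. It did not pass the test although its values did not overlap (a log2 change of 0.049 ± 0.022, adjusted p = 0.0707), and RLE scaling called it higher (0.056, adjusted p = 0.0413; adjusted p from 0.0413 to 0.669 over the alternatives). Cdk7 and Ccnh (cyclin H), which together form the CDK-activating kinase, both rose by a similar amount (a log2 change of 0.17 ± 0.032, adjusted p = 0.000221 for Cdk7, and 0.20 ± 0.039, adjusted p = 0.000276, for Ccnh). Mnat1, the assembly factor of the same complex, did not pass the test (-0.027 ± 0.039, adjusted p = 0.562). Mnat1 is named for its place in the complex and was chosen after its values were seen.

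Of the 6 CDK inhibitors, 3 fell and the other 3 did not pass the test, with a median log2 fold change of -0.19. Cdkn1b (p27, which binds cyclin E and cyclin A complexes with CDK2; chr6:134920401-134925513, plus strand) stood at 86.3, 82.9 and 87.7 CPM at 24 h and 68.5, 67.8 and 69.9 CPM at 48 h. Every 48 h library was below every 24 h library (a log2 change of -0.32 ± 0.033, adjusted p = 2.83e-07). Cdkn2d (p19INK4d) fell from 11.4 ± 0.667 to 7.92 ± 1.26 CPM (a log2 change of -0.52 ± 0.11, adjusted p = 0.000435) and Cdkn2c (p18INK4c) from 3.17 ± 0.356 to 2.14 ± 0.194 CPM (a log2 change of -0.56 ± 0.17, adjusted p = 0.00727). Both belong to the INK4 family, which binds CDK4 and CDK6, and both were low, Cdkn2c with 42 to 75 counts in a library. Cdkn1a (p21, a p53 target) was measured at 61.9, 61.9 and 63.3 CPM at 24 h and 62.8, 61.7 and 63.2 CPM at 48 h. Its libraries overlapped almost completely (a log2 change of 0.0045 ± 0.033, adjusted p = 0.916). Cdkn2a and Cdkn2b lie next to each other on chromosome 4 (GRCm38 chr4:89274471-89294653, minus strand, and chr4:89306299-89311039, minus strand). Cdkn2a, whose count joins the transcripts for p16INK4a and p19ARF, was at 20.7, 20.4 and 20.3 CPM at 24 h and 20.7, 18.9 and 18.9 CPM at 48 h (adjusted p = 0.328), and Cdkn2b (p15INK4b) went from 3.92 ± 0.280 to 3.94 ± 0.359 CPM (adjusted p = 0.949). Neither passed the test. Cdkn1c (p57), the relative of p21 and p27 that is not among the 40 genes, rose from 8.76 ± 0.782 to 31.2 ± 0.452 CPM (a log2 change of 1.84 ± 0.070, adjusted p = 7.72e-13), a larger fold change than that of any of the 40.

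**Figure D3:**
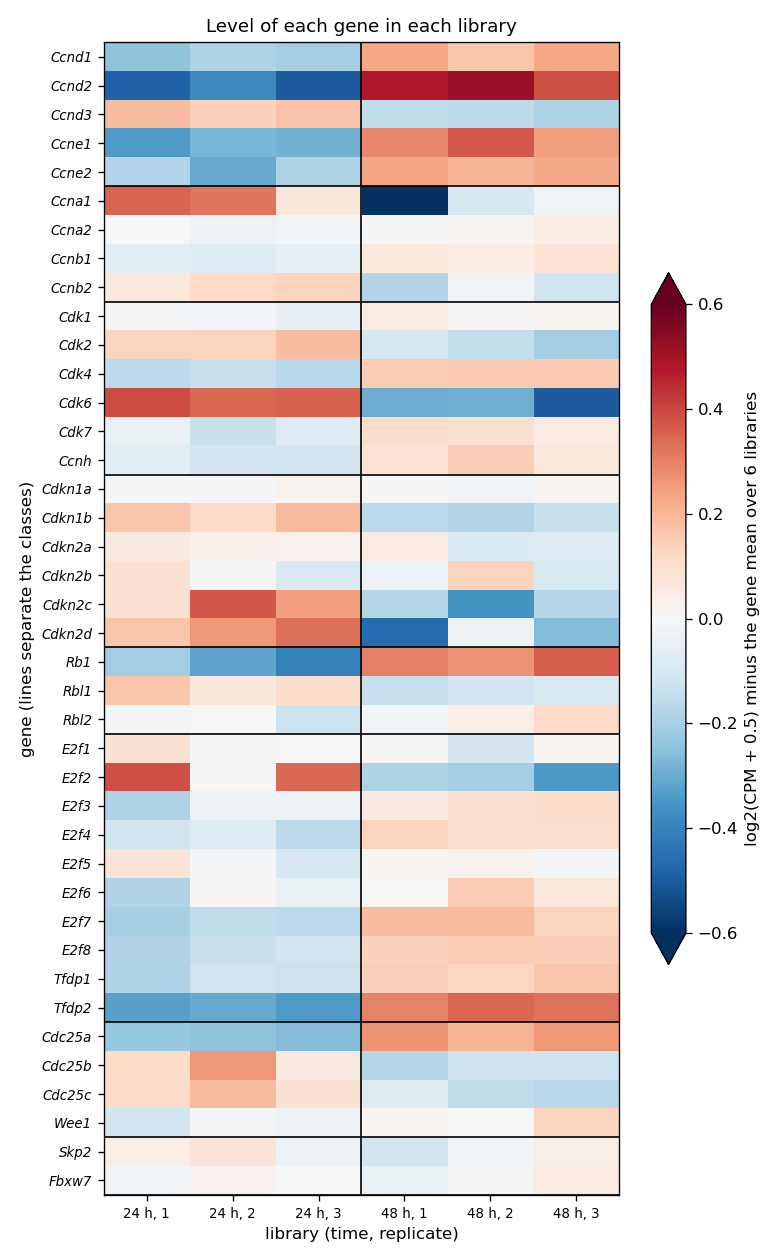
Log2(CPM + 0.5) of each of the 40 genes in each of the 6 libraries, as the difference from the gene's mean over all libraries (red above, blue below, colours end at 0.6 in each direction). The 3 libraries of a time share their colour for the genes that changed, such as Ccnd2, Cdk6 and Tfdp2, while Cdkn1a, Fbxw7 and Ccna2 stay pale in all 6 libraries.

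The 3 RB family genes took different courses. Rb1 (pRB; chr14:73183673-73325822, minus strand) stood at 31.5, 29.1 and 27.3 CPM at 24 h and 45.0, 44.0 and 46.8 CPM at 48 h. Its level was higher in all 48 h libraries (a log2 change of 0.63 ± 0.050, adjusted p = 1.28e-08). Rbl1 (p107, itself a known E2F target) fell, with 58.3, 54.4 and 56.0 CPM at 24 h and 47.0, 47.9 and 48.8 CPM at 48 h (a log2 change of -0.23 ± 0.039, adjusted p = 7.18e-05), and Rbl2 (p130, the RB protein of resting cells) did not pass the test (18.4 ± 0.926 to 19.6 ± 0.924 CPM; a log2 change of 0.097 ± 0.067, adjusted p = 0.218). In counts per kilobase, Rb1 thus went from 29.2% ± 0.999 to 41.5% ± 0.596 of the family and Rbl1 from 56.2% ± 1.33 to 44.2% ± 0.525, both without overlap and with exact p = 0.1, while Rbl2 held 14.6% ± 0.642 to 14.3% ± 0.347 (exact p = 0.7). At 24 h the level of Rbl1 per kilobase (9.38 CPM) was above that of Rb1 (4.88 CPM), and at 48 h the values were 8.0 and 7.53 CPM. Exons of Rb1 overlap exons of Lpar6 and Rcbtb2 on the opposite strand.

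Of the 10 E2F and DP genes, 7 rose, E2f2 fell and E2f1 and E2f5 did not pass the test, with a median log2 fold change of 0.20. The classical activators split: E2f3 rose a little (55.6 ± 3.29 to 62.6 ± 1.26 CPM; a log2 change of 0.17 ± 0.042, adjusted p = 0.00211), E2f2 fell, with 19.5, 14.9 and 18.9 CPM at 24 h and 13.0, 12.8 and 11.6 CPM at 48 h (a log2 change of -0.52 ± 0.096, adjusted p = 0.000184), and E2f1 went from 47.4 ± 1.74 to 45.3 ± 2.26 CPM with overlapping values (a log2 change of -0.064 ± 0.045, adjusted p = 0.223). When libraries were scaled by size alone, E2f1 was called lower (-0.12, adjusted p = 0.0228; adjusted p from 0.0228 to 0.714 over the alternatives). The repressors E2f7 and E2f8, atypical E2Fs that bind DNA without a DP partner and are known to be E2F targets themselves, rose together. E2f7 was measured at 42.0, 43.3 and 43.1 CPM at 24 h and 54.9, 55.0 and 52.8 CPM at 48 h (a log2 change of 0.34 ± 0.038, adjusted p = 6.97e-07). E2f8 was measured at 72.9, 75.3 and 76.3 CPM at 24 h and 91.0, 92.0 and 91.8 CPM at 48 h (a log2 change of 0.29 ± 0.030, adjusted p = 3.34e-07). In neither gene did the groups overlap. E2f4, which binds all 3 RB proteins and was the most abundant E2F per kilobase (67.4 ± 1.77 and 79.1 ± 0.817 CPM at 24 h and 48 h), rose from 165 ± 4.35 to 194 ± 2.00 CPM (a log2 change of 0.23 ± 0.025, adjusted p = 4.02e-07). E2f6, a repressor that works with Polycomb proteins, passed the test (a log2 change of 0.14 ± 0.056, adjusted p = 0.0339) but its values overlapped between the times, and the call was lost without replicate 1 of 24 h (0.091, adjusted p = 0.183), replicate 2 of 48 h (0.11, adjusted p = 0.157) or replicate 3 of 48 h (0.15, adjusted p = 0.0571). It was also lost with DESeq2 (0.15, adjusted p = 0.0841) and when libraries were scaled by size alone (0.083, adjusted p = 0.204), with adjusted p from 0.0145 to 0.204 over the alternatives. E2f5 did not pass (a log2 change of 0.019 ± 0.052, adjusted p = 0.767).

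The DP partners, without which the typical E2Fs bind DNA weakly, both rose. Tfdp2 (chr9:96196275-96323646, plus strand) stood at 125, 127 and 124 CPM at 24 h and 193, 199.5 and 197 CPM at 48 h. It had the smallest adjusted p of the 40 genes (a log2 change of 0.65 ± 0.024, adjusted p = 6.09e-13). Tfdp1 rose from 246 ± 6.05 to 301 ± 4.03 CPM (a log2 change of 0.29 ± 0.022, adjusted p = 5.8e-09) and remained the more abundant of the pair per kilobase, at 82.0 CPM against 14.0 CPM for Tfdp2 at 48 h. Counts of Tfdp1 were fractional. Set against the other E2Fs, the joint share of E2f1, E2f2 and E2f3 in the counts per kilobase of all 8 went from 21.1% ± 0.570 to 18.6% ± 0.358, without overlap (exact p = 0.1).

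Among the enzymes that set the inhibitory phosphate on CDKs, the CDC25 phosphatases, which remove it, were split. Cdc25a, the member that acts at the G1/S border as well as in mitosis (chr9:109875579-109893895, plus strand), stood at 95.4, 94.5 and 93.3 CPM at 24 h and 135, 129 and 134 CPM at 48 h. All 48 h values were above the 24 h values (a log2 change of 0.49 ± 0.028, adjusted p = 1.66e-10). Cdc25b and Cdc25c, known for their role at entry into mitosis, fell from 47.5 ± 3.67 to 38.9 ± 0.712 CPM (a log2 change of -0.28 ± 0.050, adjusted p = 0.000117) and from 23.0 ± 0.831 to 19.1 ± 0.700 CPM (a log2 change of -0.27 ± 0.060, adjusted p = 0.000945). The share of Cdc25a in the CDC25 total per kilobase was 41.1%, 38.6% and 41.4% at 24 h and 54.1%, 52.8% and 53.8% at 48 h, while Cdc25b went from 43.6% ± 1.56 to 33.8% ± 0.898 and Cdc25c from 16.1% ± 0.110 to 12.6% ± 0.417 (exact p = 0.1 for each). Without division by length Cdc25b held a mean of 28.8% and 20.4% at 24 h and 48 h. Wee1, the kinase that places the phosphate, rose by a small amount (a log2 change of 0.10 ± 0.038, adjusted p = 0.0239), and this call was lost without replicate 1 of 24 h (0.074, adjusted p = 0.121) or replicate 3 of 48 h (0.063, adjusted p = 0.15), and when libraries were scaled by size alone (0.044, adjusted p = 0.319), with adjusted p from 0.00721 to 0.319 over the alternatives.

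Neither of the ubiquitin ligase subunits passed the test. Skp2, which directs p27 to degradation, was at 70.4, 72.4 and 66.8 CPM at 24 h and 63.4, 67.7 and 70.1 CPM at 48 h (a log2 change of -0.057 ± 0.041, adjusted p = 0.248), and Fbxw7, which directs cyclin E to degradation, at 52.9, 54.4 and 53.3 CPM at 24 h and 51.7, 53.1 and 55.3 CPM at 48 h (adjusted p = 0.947). Their groups overlapped. Under that same scaling by size alone Skp2 was called lower (-0.12, adjusted p = 0.02; adjusted p from 0.02 to 0.776 over the alternatives). Of the other genes of these ligases, Cks1b, the cofactor of SKP2 for p27, rose from 112 ± 0.619 to 149.8 ± 2.05 CPM (a log2 change of 0.42 ± 0.025, adjusted p = 2.77e-10), and Usp28, a deubiquitinase known to counter FBXW7, rose from 231 ± 8.39 to 361 ± 2.41 CPM (a log2 change of 0.65 ± 0.024, adjusted p = 5.24e-13). Of the core subunits of the SKP2 and FBXW7 ligases, named after their values were seen, Cul1 rose from 259.9 ± 3.12 to 345 ± 4.88 CPM (a log2 change of 0.41 ± 0.020, adjusted p = 1.81e-11), while Skp1 (0.013 ± 0.020, adjusted p = 0.6) and Rbx1 (0.048 ± 0.035, adjusted p = 0.245) did not pass the test.

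Since genes of this set are textbook targets of E2F and of the cell cycle complexes that bind CCAAT and CHR elements, their promoters were searched for these letters. RefSeq's table for GRCm38.p6 (250 bases before to 50 after a start site) held 41 promoters for 30 of the 40 genes. It holds no entry for Ccnd1, Ccnd2, Ccne2, Ccna2, Ccnh, Rb1, E2f4, E2f5, Cdc25c and Wee1. Searched on both strands, with overlapping matches counted, were the E2F sites TTTCCCGC, TTTGGCGC, TTTCGCGC and TTTGCCGC, the CHR element TTTGAA and the CCAAT box CCAAT. No letters are shared between the matches shown. An E2F site was found in 10 of the 41 promoters, those of 9 genes, while 2.26% of all 32851 promoters in the table hold one. The promoters of Tfdp1 overlap and hold the same match, which is counted in each. CHR letters were in 8 of the 41 (17.9% of all promoters) and CCAAT in 18 of the 41 (37.4% of all promoters). E2F sites occurred in genes of either direction, in Cdc25a, E2f3, E2f7 and Tfdp1, which rose, in Cdk2, E2f2 and Rbl1, which fell, and in Cdk1 and Cdkn2a, which did not pass the test. A match is a run of letters and no measure of binding.

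Promoters of 4 genes are shown because each carries a match to an E2F site while they belong to genes that rose (Cdc25a, chr9:109875329-109875628, plus strand, and E2f7, chr10:110745189-110745488, plus strand), fell (Rbl1, chr2:157204485-157204784, minus strand) or did not pass the test (Cdk1, chr10:69352863-69353162, minus strand). That of Ccnb2, which fell (chr9:70421505-70421804, minus strand), is shown for its CHR and CCAAT letters without an E2F match. Each is written 5′ to 3′ on the gene's strand with every match to the E2F, CHR or CCAAT letters in capitals.
Cdc25a: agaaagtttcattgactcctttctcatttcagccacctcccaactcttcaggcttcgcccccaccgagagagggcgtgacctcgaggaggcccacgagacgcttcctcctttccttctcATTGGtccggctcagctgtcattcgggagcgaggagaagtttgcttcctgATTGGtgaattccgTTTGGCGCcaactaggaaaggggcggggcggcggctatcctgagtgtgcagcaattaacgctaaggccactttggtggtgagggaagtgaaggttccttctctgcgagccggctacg
E2f7: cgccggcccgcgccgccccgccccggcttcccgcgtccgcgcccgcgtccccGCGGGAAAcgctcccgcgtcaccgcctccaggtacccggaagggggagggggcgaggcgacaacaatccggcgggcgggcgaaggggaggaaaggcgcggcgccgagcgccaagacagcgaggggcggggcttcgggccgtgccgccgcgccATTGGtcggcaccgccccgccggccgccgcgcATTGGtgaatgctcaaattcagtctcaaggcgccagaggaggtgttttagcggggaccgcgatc
Rbl1: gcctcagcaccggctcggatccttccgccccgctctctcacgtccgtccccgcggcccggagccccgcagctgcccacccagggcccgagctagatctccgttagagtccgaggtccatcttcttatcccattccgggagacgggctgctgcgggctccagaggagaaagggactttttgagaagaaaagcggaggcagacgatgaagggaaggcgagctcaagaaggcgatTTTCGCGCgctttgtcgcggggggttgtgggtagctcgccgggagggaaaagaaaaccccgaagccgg
Cdk1: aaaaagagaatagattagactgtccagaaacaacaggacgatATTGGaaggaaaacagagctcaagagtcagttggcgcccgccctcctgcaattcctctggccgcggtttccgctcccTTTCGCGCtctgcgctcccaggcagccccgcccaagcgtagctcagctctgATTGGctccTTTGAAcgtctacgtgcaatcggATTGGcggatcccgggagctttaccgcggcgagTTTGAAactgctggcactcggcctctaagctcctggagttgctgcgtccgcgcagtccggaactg
Ccnb2: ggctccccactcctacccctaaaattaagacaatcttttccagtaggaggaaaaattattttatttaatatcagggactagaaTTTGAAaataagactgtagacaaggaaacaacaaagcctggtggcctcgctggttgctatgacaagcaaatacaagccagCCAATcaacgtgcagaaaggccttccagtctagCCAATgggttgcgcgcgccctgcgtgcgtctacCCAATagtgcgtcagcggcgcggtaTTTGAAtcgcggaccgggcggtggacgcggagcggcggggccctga
The E2F letters stand 67 bases before the annotated start in Cdc25a, 198 in E2f7, 18 in Rbl1 and 131 in Cdk1. In Cdk1, a CCAAT match on the reverse strand (ATTGG) stands 80 bases before the start and a CHR match 71 bases before it. Ccnb2 has 3 CCAAT matches at 87, 54 and 21 bases before the start, with CHR matches 167 bases before it and 5 bases after it.

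Levels of the 40 genes per kilobase spanned from 0.772 CPM (Ccna1) to 122 CPM (Cdk4) at 24 h. Cdk4 and Ccnb1 were first and second in this order at both times. Ccnb2, Ccna2, E2f4 and Tfdp1 came next at 24 h, at 89.8, 75.8, 67.4 and 67.0 CPM. E2f4 and Tfdp1 did not differ beyond their SD at 24 h (1.77 and 1.65 CPM). At 48 h, Tfdp1, E2f4, Ccna2, Ccne1 and Ccnb2 lay between 77.5 and 82.0 CPM, and Ccna2, Ccne1 and Ccnb2 did not differ beyond their SD. Ccne1 had been at 51.0 CPM at 24 h. At the lower end, the inhibitors Cdkn2b and Cdkn2c, Rbl2 and the cyclins Ccnd2 and Ccna1 were under 3 CPM per kilobase at both times.

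**Figure D4:**
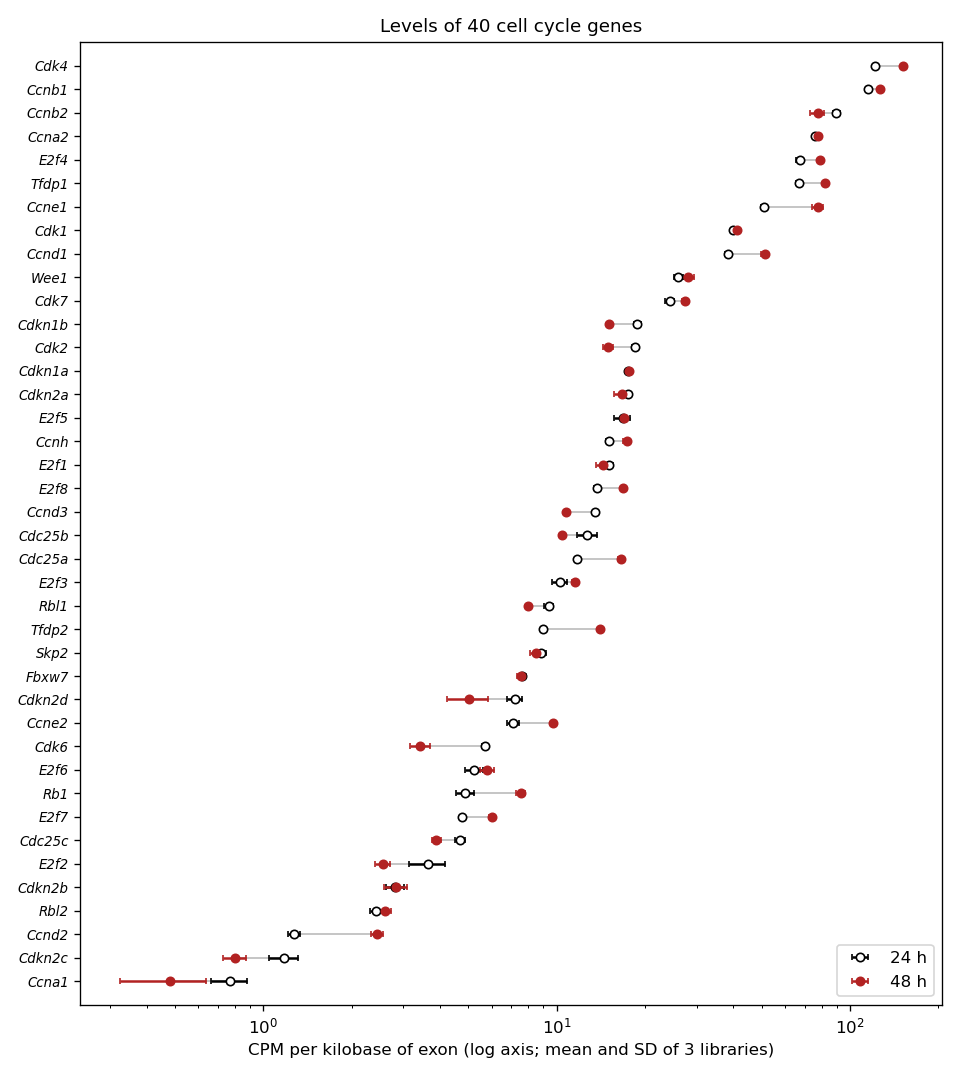
Level of each of the 40 genes in CPM per kilobase of exon on a log axis, sorted by the 24 h level, with open points for 24 h, filled points for 48 h and bars for the SD of 3 libraries. Cdk4 stands highest at both times and Ccna1 lowest, and most pairs of points lie close together beside the range of levels between genes.

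Related genes that are no part of the set were read from the same fit in 3 lists. Of 20 E2F target genes for DNA synthesis and origin licensing, 14 were higher and 2 lower, with a median log2 fold change of 0.11. That is 80% called, beside 71.8% of the tested genes whose mean was 10 CPM or more, a level that every gene of the 3 lists reaches, and 62.8% of all tested genes. The changes were small, and among the larger increases were those of Rfc4 (0.33), a subunit of the clamp loader, and Mcm2 (0.21), a subunit of the replicative helicase. Tk1, thymidine kinase, fell from 60.3 ± 2.70 to 48.4 ± 1.53 CPM (a log2 change of -0.32 ± 0.041, adjusted p = 4.51e-06) and Pola1, the catalytic subunit of DNA polymerase alpha, had a log2 fold change of -0.17. Scaled by library size alone, 9 of the 20 were higher and 4 lower, with a median of 0.052. Of 20 mitotic genes, 8 were higher, 3 lower and 9 did not pass (55% called), with a median of 0.047. Nusap1, Aurka and Cenpf, which act on the spindle and the kinetochore, rose by 0.18, 0.16 and 0.16. Mybl2 (B-Myb), which switches on mitotic genes with the MuvB complex, fell from 891 ± 13.3 to 684 ± 11 CPM (a log2 change of -0.38 ± 0.017, adjusted p = 7.19e-12), and Foxm1 and Birc5 had log2 fold changes of -0.16 and -0.15. Scaled by library size alone, 4 mitotic genes were higher and 8 lower, and the median was -0.014, so the direction of this list depends on the scaling.

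The third list held 22 other genes of the cell cycle engine, of which 8 were higher, 3 lower and 11 did not pass. That is 50% called, a lower share than the 71.8% of genes with at least 10 CPM, and the list had a median log2 fold change of 0.053 (-0.0074, when libraries were scaled by size alone, with 6 lower). Besides Cdkn1c, Usp28 and Cks1b, which had the largest increases, Cdk5, a kinase best known from neurons, fell from 13.4 ± 1.22 to 9.20 ± 0.829 CPM (a log2 change of -0.54 ± 0.094, adjusted p = 8.81e-05). Ccng2 (cyclin G2) had a log2 fold change of -0.42 and Lin54, the DNA-binding subunit of MuvB, one of -0.13.

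**Figure D5:**
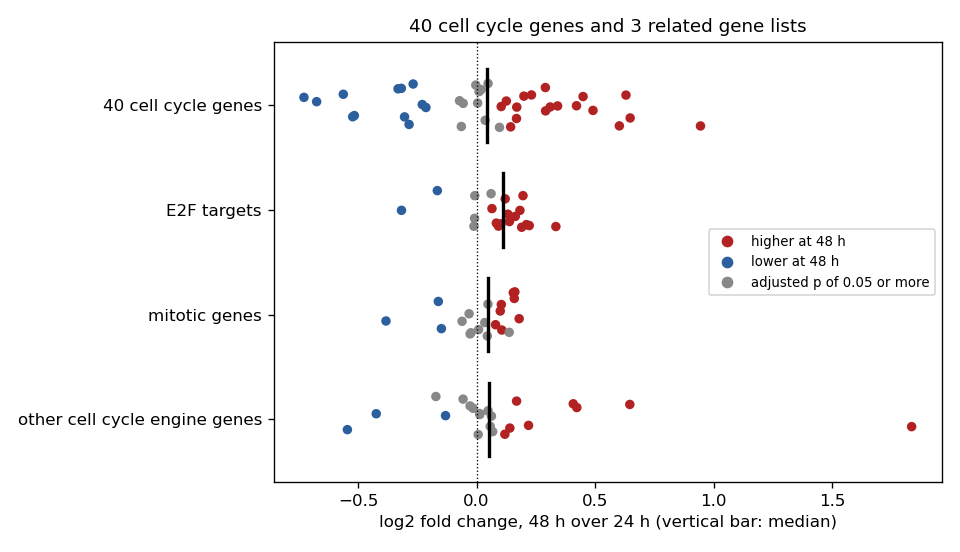
Log2 fold change, 48 h over 24 h, of each gene of the set and of the 3 related lists, 1 point per gene (vertical position within a list has no meaning), coloured by the call, with the list median as a vertical bar. The mitotic genes and E2F targets all lie between -0.38 and 0.33, a narrower range than the 40 genes, and Cdkn1c stands alone at 1.84.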

How the data were processed

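Messenger RNA of 6 libraries was counted per gene. The deposited values are RSEM estimated counts, per the name of the authors' table, not scaled for depth or gene length. Per the submitters' processing notes, cutadapt 1.9.1, STAR 2.5.2 and RSEM 1.3.0 were used with GRCm38. The annotation and the use of strand are not given in the sources used here. Each column name matches 1 sample title. Symbols, coordinates and merged exon lengths came from GENCODE M21 (GRCm38), which named 51633 of 51912 identifiers. Exons of 18 of the 40 genes overlap exons on the opposite strand. Besides those named for it above, these are Ccna1, Ccna2, Cdkn1a, Rbl2, E2f5, E2f7, E2f8, Cdc25b and Cdc25c. Of the other 22 genes, 10 were higher and 6 lower. Counts of 38 genes were whole.

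Counts were rounded, genes kept by filterByExpr (minimum count 10), scaled by TMM and tested with edgeR 4.0.16 (R 4.3.3, quasi-likelihood, group only), adjusted by Benjamini-Hochberg over 14889 genes. The standard error is the log2 fold change divided by the square root of F. The fit was tested on counts simulated with the spread of these libraries, with changes given to genes of at least 10 CPM. It recovered 82% of 50 changes of 0.25 in log2 units and 100% of 50 changes of 0.5. Of 202 calls, 11 were false. The simulation does not address the spread between separate cultures. Family shares were compared by exact permutation tests over libraries. Pairs of replicates differed by 1.82 to 2.22 in chi-square per degree of freedom, more than counting noise, and were counted as separate. Alternatives were RLE scaling or library size alone, 2 other filters, DESeq2 1.42.0, limma 3.58.1 (voom), unrounded counts, the replicate block and leaving out each library. The genes and lists were chosen with earlier results of these data known. All 40 genes could be named, and of each list the 3 largest changes in each direction among called genes whose mean reached 5 CPM. A list gene that the rule also names is not reported here.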

Additional observations from a re-analysis of the deposited data

How the results depend on the processing

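Over the 14 alternative fits, between 16 and 19 of the 40 genes were higher and between 11 and 14 lower, and between 7986 and 9792 of all tested genes were called. Of the 560 values of single genes, 526 stayed on the same side of zero and of the threshold, 15 were no longer called, 3 became called and 16 changed sign. All 15 lost calls were those of Ccna1, E2f6 and Wee1. The sign changes were of genes not called in those fits: scaled by library size alone Ccna2 (-0.024), Cdk1 (-0.012), Cdkn1a (-0.056), Cdkn2b (-0.050) and E2f5 (-0.041), and Fbxw7 with RLE scaling (0.0041) and DESeq2 (0.0040). Across the fits that left out 1 library, the log2 fold change ranged from -0.0028 to 0.017 for Cdkn1a, -0.063 to 0.064 for Cdkn2b, -0.031 to 0.062 for E2f5 and -0.028 to 0.021 for Fbxw7. That scaling lowers the median log2 fold change of all genes to -0.07, and the class medians became 0.39 (G1 cyclins), -0.15 (S-phase and mitotic cyclins), 0.048 (kinases), -0.25 (inhibitors) and -0.14 (CDC25 and WEE1). For the lists the medians became 0.052 (E2F targets, 9 higher, 4 lower), -0.014 (mitotic genes, 4 higher, 8 lower) and -0.0074 (other genes, 6 lower). The last median ranged from 0.027 to 0.067 when 1 library was left out. Without division by gene length, the shift of the shares was 9.32 percentage points for Ccnd1 (with it 7.42), 2.58 for Ccnd2 (1.41), -11.9 for Ccnd3 (-8.82) and -3.94 for Cdc25c (-3.45). The replicate block called 9235 genes, of which 9138 were also called without it, and 18 of the 40 genes were higher and 11 lower, Ccna1 losing its call (-0.69, adjusted p = 0.0683). Deviations of same-numbered libraries correlated at -0.05, -0.04 and -0.01, so same-numbered libraries were not treated as pairs. Depth limits Ccna1, with 12 to 31 counts in a library. Beyond the scaling itself, the cause was not tested.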
